A study of Drosophila melanogaster with 12 samples.

Results

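The *sgf11* comparison set 4 libraries of nuclear RNA from *sgf11* mutant glia against 4 from wild-type glia, 8 of the 12 libraries of the series. The 4 *nonstop* libraries were used to ask which changes were also seen in the mutant of the partner subunit. In each library, glial nuclei carrying a GFP tag were purified by affinity from pooled central nervous systems with attached eye-antennal discs of *Drosophila melanogaster* larvae raised at 25°C, at the wandering stage of the third instar. The *sgf11* larvae (*sgf11* -/-) were homozygous for the piggyBac insertion *CG13379e01308*, with *repo-GAL4* on one copy of the third chromosome and *UAS-GFP-Msp300KASH* at *attP2* on the other. The *nonstop* larvae (*nonstop* -/-) were homozygous for the P-element insertion *not02069* on a chromosome with *ry506*, with the same driver and reporter. The wild-type larvae carried the driver and the reporter together on one copy of the third chromosome over the balancer *TM3*, *Sb1*. All groups carry the nuclear GFP reporter driven by the glial *repo* promoter, so that any nucleus with driver activity is collected, and all carry *w*. The mutants and wild type therefore differ elsewhere on the third chromosome as well as in *sgf11*, and the effects of these differences cannot be told apart within this design. The genotypes given name only *w* and the third chromosome. Whether the groups also differ elsewhere on the X or on the other chromosomes is not known, and effects of such differences cannot be told apart either.

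Sgf11 is a small subunit of the deubiquitinase module of SAGA (the Spt-Ada-Gcn5 acetyltransferase complex), a coactivator that is recruited to genes during transcription. The module holds the ubiquitin protease Nonstop, which removes ubiquitin from histone H2B, and Sgf11 helps to anchor and to activate this protease. Glia insulate and nourish neurons, form the blood-brain barrier, and in the developing visual system provide the ground on which photoreceptor axons stop.

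The libraries held 6913032 to 9824114 counts assigned to genes in *sgf11* (median 7401701.5), 7763472 to 11358569 in *nonstop* and 8535880 to 11459317 in wild type. Levels are counts per 1000000 gene counts (CPM), and a gene entered the test with over 1 CPM in 4 or more of the 12 libraries, which left 9966. A change is called where the false discovery rate (FDR), which is the Benjamini-Hochberg adjusted p-value of edgeR's quasi-likelihood test over these genes, is under 0.01, and log2 fold changes and their standard errors (SE) are those of the fit. CPM are scaled by TMM and are not divided by transcript length, so they are compared between groups and not between genes. The *sgf11* replicate 1 lay nearer to wild type than the others did, with a mean correlation of log2 CPM with the wild-type libraries of 0.940, against 0.923 to 0.934 for the other *sgf11* libraries. Calls of named genes that were lost without it are stated, and fold changes are those with it included.

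*sgf11* transcripts were nearly absent from the mutant glia, which checks the labels. *Sgf11* (FBgn0036804, arm 3L) was at 0, 0, 0.147 and 0.129 CPM in the *sgf11* libraries, against 5.55, 4.06, 3.09 and 6.205 CPM in the wild-type libraries. These are 2 counts over the *sgf11* group and 189 over the wild-type group, so that the level was 75.7-fold lower in *sgf11* (95% interval 20.7 to 629, which covers counting error only). *Sgf11* was at 3.86 ± 0.490 CPM (SD, n = 4) in *nonstop* glia. The gene next to *Sgf11* towards lower coordinates, *CR34254*, had 0 counts in the *sgf11* libraries, against 1.34, 1.53, 1.51 and 1.87 CPM in the *nonstop* libraries and 0.273, 0.878, 0.290 and 1.26 CPM in the wild-type libraries. It was at least 6.94-fold lower in *sgf11* than in wild type, with a floor of 3 counts over the *sgf11* group (quasi-likelihood FDR = 0.00136). The neighbour on the other side, *CG32202*, was at 1.63 ± 0.437 CPM in *sgf11* and 1.08 ± 0.444 CPM in wild type (SD, n = 4 each) and did not pass the test (quasi-likelihood FDR = 0.297). *not* (FBgn0013717), the gene for Nonstop, lies 58.9 kb from *Sgf11* on 3L. In the *nonstop* libraries, *not* transcripts were lowered and not absent, at 11.1, 9.44, 9.08 and 9.51 CPM (log2 fold change from wild type -1.45, SE 0.13, quasi-likelihood FDR = 1.54e-07). The activity left in that mutant was not tested. Its transcripts were at 19.7, 15.8, 14.4 and 19.01 CPM in the *sgf11* libraries, against 28.1, 29.4, 25.7 and 23.98 CPM in the wild-type libraries (log2 fold change -0.63, SE 0.13, quasi-likelihood FDR = 0.000662), with no overlap between the groups.

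The purified nuclei carried the marks of glia in both genotypes. All 8 glial markers were detected, and their summed level ranged from 2111 to 3318 CPM in *sgf11* and from 2453 to 2514 CPM in wild type, with 2 of the 8 called higher and none lower. *repo*, the transcription factor that defines most glia, was at 126 ± 21.2 CPM in *sgf11* and 148 ± 11.48 CPM in wild type (SD, n = 4 each) and did not pass the test (quasi-likelihood FDR = 0.15). Markers of other cells were present too. The 5 neuronal markers summed to 506 to 659 CPM in *sgf11* and 458 to 599 CPM in wild type, and 3 of them rose. The 5 neuroblast markers summed to 48.6 to 64.4 CPM in *sgf11*, below the 66.9 to 86.5 CPM in wild type, and 3 of them fell. The 5 fat body markers summed to 71.7 to 143 CPM in *sgf11* and 61.6 to 134 CPM in wild type, and 3 of them rose and 1 fell. The 4 photoreceptor markers found (55.0 to 71.8 CPM in *sgf11*, 77.8 to 88.4 CPM in wild type), the 5 hemocyte markers (26.2 to 109 CPM in *sgf11*, 21.9 to 42.5 CPM in wild type) and the 5 muscle markers (30.2 to 51.6 CPM in *sgf11*, 15.5 to 89.5 CPM in wild type) had no member that passed the test. In nuclear RNA pooled from many nuclei, a change in the number of nuclei of a type cannot be told apart from a change in RNA per nucleus.

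In *sgf11* glia, 1634 genes were significantly upregulated (16.4% of the 9966 tested) and 1403 were significantly downregulated (14.1%), 30.5% together. Large changes were mostly increases. Among the called genes, 949 were over 2-fold higher and 288 were over 2-fold lower in *sgf11*. Genes near silent in wild type could pass the filter through mutant libraries in which they were high. This favours large increases, and its part in these 2 counts was not tested. With TMM factors computed only on the 3633 genes that pass the authors' filter, all genes shift up by 0.123 (median, log2 scale) and the split becomes 2100 higher and 935 lower, so that 69.2% of the calls are increases instead of 53.8%. With library sizes alone, all genes shift by -0.051 and the split becomes 1329 higher and 1341 lower, so that 49.8% of the calls are increases. The excess of increases among the calls thus depends on the scaling. Over all genes tested, the log2 fold change had a median of 0.02 in the fit reported. For comparison, 1862 genes (18.7%) were higher and 1699 (17%) were lower in *nonstop* than in wild type, 35.7% together. These calls are 52.3% increases, or 68.7% with the TMM factors of the authors' filter (shift 0.147) and 39.6% with library sizes alone (shift -0.127). Both comparisons share the same wild-type libraries.

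Among called genes with at least 5 CPM in *sgf11* and no overlap with wild type, those with the highest fold changes were near silent in wild-type glia and differed widely in how far they moved in *nonstop*. *Cyp6a17*, a cytochrome P450 gene, was at 16.97, 25.01, 28.1 and 20.4 CPM in the *sgf11* libraries, against 0 counts in wild type. With the floor of 3 counts for the wild-type group, it was at least 291-fold higher in *sgf11*. In *nonstop* it was at 39.5 ± 7.83 CPM (SD, n = 4), and the mutants did not differ past the threshold (quasi-likelihood FDR = 0.0134). *CG10920* (FBgn0029963, arm X) was at 50.7, 49.1, 54.2 and 16.3 CPM in the *sgf11* libraries, against 0.122, 0, 0.138 and 0 CPM in *nonstop* and 0, 0.110, 0 and 0 CPM in wild type. A single count was found in the wild-type group, and the ratio of *sgf11* to wild type was 1711 (95% counting interval 307 to 67636). In *nonstop*, too, *CG10920* was close to 0, with 2 counts over the group, against 1370 counts over the *sgf11* group. *Fum3* (FBgn0036162, arm 3L), which encodes a fumarase, the enzyme of the citric acid cycle that hydrates fumarate, followed the same pattern. *Fum3* was at 9.78, 13.2, 16.1 and 9.697 CPM in the *sgf11* libraries, against 0, 0.139, 0.138 and 0 CPM in *nonstop* and 0 counts in wild type, at least 157-fold higher in *sgf11* than in wild type. Another gene of this kind, *CG31601* (FBgn0051601, arm 2L), was at 17.8, 7.27, 13.3 and 13.1 CPM in the *sgf11* libraries, against 0, 0.139, 0 and 0.255 CPM in *nonstop* and 0.0910, 0.110, 0.193 and 0 CPM in wild type (log2 fold change 6.83, SE 0.48, quasi-likelihood FDR = 8.41e-09).

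Other genes at the top of the list rose in both mutants. *Ilp8*, the relaxin-like peptide that larval tissues release when their growth is disturbed and that delays metamorphosis, was at 14.2, 20.2, 10.1 and 25.1 CPM in the *sgf11* libraries, against 5.4999, 3.33, 5.78 and 6.37 CPM in *nonstop* and 0.182, 0.219, 0 and 0.105 CPM in wild type (log2 fold change 6.96, SE 0.45, quasi-likelihood FDR = 3.26e-09 for *sgf11* against wild type). The *sgf11* and *nonstop* libraries did not overlap, and *Ilp8* was higher in *sgf11* than in *nonstop* (log2 fold change 1.71, SE 0.27, quasi-likelihood FDR = 0.00081). *Ir40a*, an ionotropic receptor gene used in humidity sensing, was at 31.7 ± 5.15 CPM in *sgf11*, 13.9 ± 2.14 CPM in *nonstop* and 0.295 ± 0.393 CPM in wild type (SD, n = 4 each). *CG32037* (150.4 CPM in *sgf11*, 253 CPM in *nonstop* and 1.9997 CPM in wild type) and the noncoding *lncRNA:CR43144* (181, 110.2 and 1.34 CPM) rose likewise. *CG42711* had 192 counts over the *sgf11* libraries, 68 over the *nonstop* libraries and none over the wild-type libraries, so that the level in *sgf11* was at least 79.9-fold that in wild type. *Grl62c*, a gustatory receptor-like gene, had 183 counts over the *sgf11* libraries, 23 over the *nonstop* libraries and 1 over the wild-type libraries, a ratio of *sgf11* to wild type of 229 (95% counting interval 40.5 to 9077).

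Among called genes with at least 5 CPM in wild type and no overlap with *sgf11*, 9 of the 10 with the lowest fold changes also fell in *nonstop* glia. The lowest of the 10 was *acs* (0.191 ± 0.0783 CPM in *sgf11* and 7.001 ± 2.18 CPM in wild type, SD, n = 4 each, log2 fold change -5.12, quasi-likelihood FDR = 3.81e-08), followed by *CG11349*, *Spn43Aa*, a gene for a serine protease inhibitor, and *CG14257* (log2 fold changes -4.66, -4.31 and -4.16). *CG15905*, *firl* and the cuticle protein gene *Cpr49Ac* fell by a similar amount (log2 fold changes -3.86, -3.81 and -3.57). *Blimp-1*, a gene for a transcriptional repressor, and *ImpE2*, both induced by the moulting hormone ecdysone, had a log2 fold change of -3.84 each. *ImpE2* was at 15.8, 2.58, 1.61 and 5.04 CPM in the *sgf11* libraries, against 79.4, 100.6, 124 and 86.7 CPM in the wild-type libraries, and replicate 1 was the highest of the *sgf11* group. The tenth was *CG14715* (FBgn0037930, arm 3R). It was at 1.84, 1.06, 2.05 and 0.905 CPM in the *sgf11* libraries, against 26.03, 26.4, 18.3 and 17.7 CPM in *nonstop* and 28.5, 25.5, 21.5 and 23.6 CPM in wild type, so that the *nonstop* and wild-type libraries overlapped and the *sgf11* libraries lay apart from both (log2 fold change -4.04, SE 0.23, quasi-likelihood FDR = 9.12e-10 for *sgf11* against wild type, log2 fold change -0.17, quasi-likelihood FDR = 0.416 for *nonstop* against wild type).

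**Figure D1:**
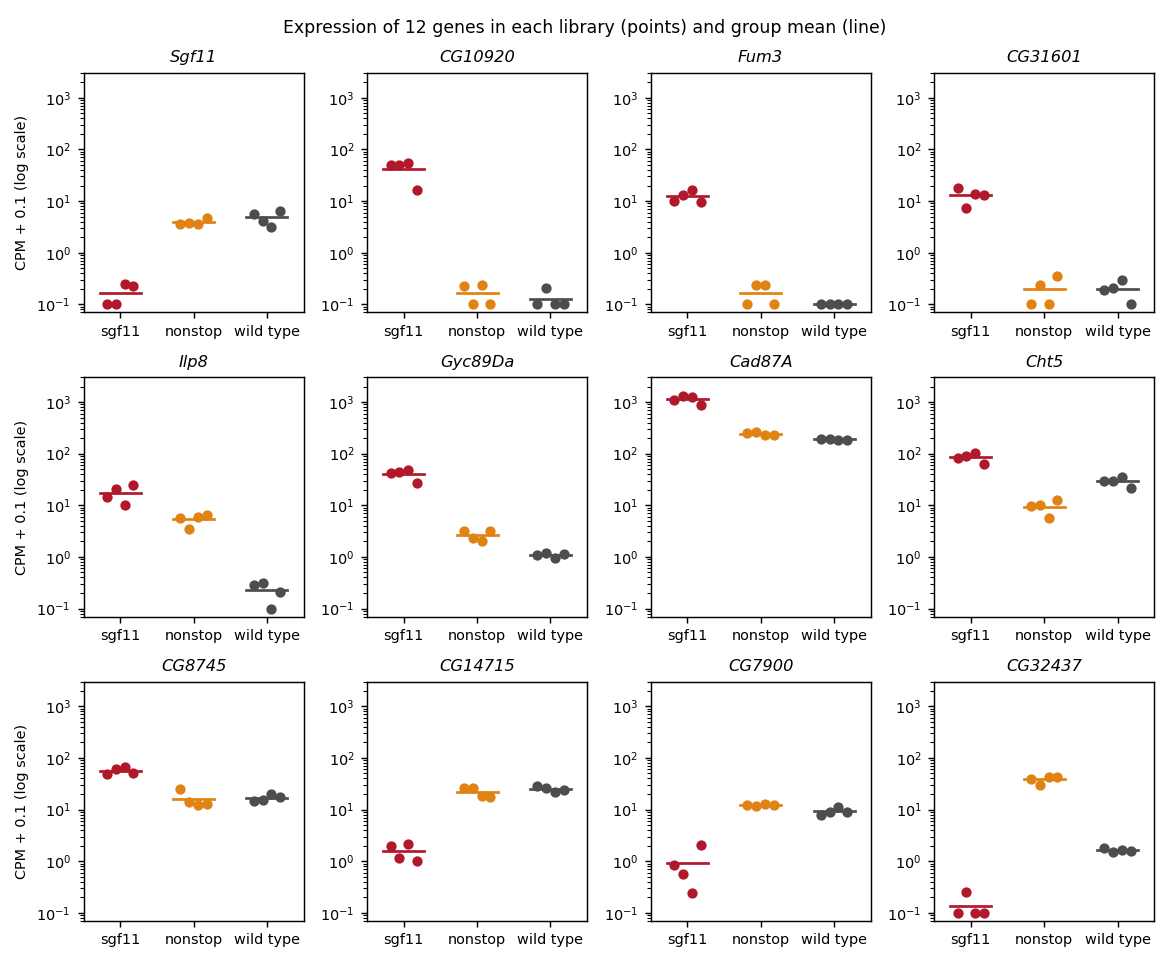
Level of 12 genes in every library, as CPM + 0.1 on a log axis, for *sgf11*, *nonstop* and wild type (points, 4 libraries each; line, group mean). *CG10920*, *Fum3* and *CG31601* were near 0 in *nonstop* and wild type, *Cht5* moved in opposite directions in the mutants, and *CG14715* and *CG7900* were low in *sgf11* alone among the groups.

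Genes that changed in *sgf11* and were flat in *nonstop* were then listed. A gene was taken as flat in *nonstop* where it was not called there and the 95% interval of its fold change from wild type lay within 1.5-fold in either direction (a log2 value of 0.58), which holds for 2695 of the genes tested (27%). Of these, 71 were called higher and 99 were called lower in *sgf11* (0.712% and 0.993% of all genes tested), 170 in all. These values chose the genes and are given as a description. Within this set the changes were small, with a median absolute log2 fold change of 0.49 and 6 genes over 2-fold. The rule needs a narrow interval in *nonstop*, so genes with few counts there and in wild type can fail it however flat they are. *CG10920*, *Fum3* and *CG31601*, described above, are left out in this way (*nonstop* intervals -3.11 to 4.88, -0.42 to 5.14 and -1.93 to 2.29 on the log2 scale). The set therefore does not describe the size of changes in such genes. For 150 of the 170, *sgf11* and *nonstop* did not differ at an FDR under 0.01, so that most of these genes are not shown to respond differently in the mutants. *skd*, which encodes a Mediator subunit and was chosen after its values were seen, is near the median of the set, with log2 fold changes of -0.49 in *sgf11* and -0.29 in *nonstop* and a quasi-likelihood FDR of 0.248 between the mutants. The neuroblast transcription factor gene *dpn* (log2 fold changes -0.61 and -0.27) is another, and its call in *sgf11* was lost without *sgf11* replicate 1 or 2 or without wild-type replicate 1 or 3 (FDR up to 0.0139), and with TMM factors from the genes that pass the authors' filter (FDR 0.0234). The count of higher genes fell to 45 without wild-type replicate 2, and that of lower genes fell to 59 without *sgf11* replicate 3. With library sizes in place of TMM factors 18 genes were lower instead of 99.

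In 20 genes (0.201% of all genes tested) *sgf11* also differed from *nonstop*, 16 higher (0.161%) and 4 lower (0.0401%) in *sgf11* than in wild type. *CG8745* (FBgn0036381, arm 3L) was at 48.9, 61.2, 65.2 and 51.6 CPM in the *sgf11* libraries, against 25.1, 13.6, 11.97 and 12.7 CPM in *nonstop* and 14.7, 15.1, 19.9 and 17.6 CPM in wild type (log2 fold change 1.75 in *sgf11* and -0.09 in *nonstop*). *CG15822* (FBgn0035308, arm 3L) was at 27.7, 27.6, 26.4 and 20.3 CPM in the *sgf11* libraries, against 7.33, 6.53, 6.602 and 8.92 CPM in *nonstop* and 8.92, 6.91, 7.34 and 8.41 CPM in wild type. In both genes every *sgf11* library lay above every other library. *bru3*, a gene for an RNA-binding protein of the Bruno family, was at 114 ± 11.7 CPM in *sgf11*, 60.02 ± 5.199 CPM in *nonstop* and 53.4 ± 11.51 CPM in wild type (SD, n = 4 each). *CG12112* had a log2 fold change of 1.12 in *sgf11* and -0.02 in *nonstop*.

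Several of the 16 encode enzymes of metabolism or detoxification. They include the P450 gene *Cyp6a13* (log2 fold change 0.95 in *sgf11* and 0.21 in *nonstop*), the retinol dehydrogenase gene *Rdh1* (log2 fold changes 0.85 and 0.24), the glutathione S-transferase gene *GstE1* (log2 fold changes 0.72 and -0.07) and *UGP* (log2 fold changes 0.63 and -0.08), whose product makes UDP-glucose. Others act in signaling and in the cell's response to stress. *FER*, a gene for a cytoplasmic tyrosine kinase, was at 343, 384, 365 and 303 CPM in the *sgf11* libraries, against 199, 216, 182 and 186 CPM in *nonstop* and 207, 215, 192 and 190.0 CPM in wild type. *Mical*, which encodes an enzyme that takes actin filaments apart downstream of semaphorin receptors, was at 419, 420.4, 440.0 and 333 CPM in the *sgf11* libraries, against 216, 214, 222 and 248 CPM in *nonstop* and 222, 268, 306 and 279 CPM in wild type. Smaller log2 fold changes were those of *SP1173* (0.70), of *eIF2Bdelta* (0.48), a subunit of the exchange factor that recharges the translation factor eIF2, of *BI-1* (0.45), a Bax inhibitor of the endoplasmic reticulum, and of *trbl* (0.38), the Tribbles pseudokinase gene. With library sizes in place of TMM factors, or with no filter on low counts, the calls of *trbl* and *eIF2Bdelta* were lost (FDR up to 0.0535), and that of *eIF2Bdelta* was also lost without *sgf11* replicate 1 or 3 or wild-type replicate 1 or 2 (FDR up to 0.0185). The remaining 2 have no name in the annotation used (FBgn0028401, log2 fold change 0.86, and FBgn0052138).

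The 4 lower genes were *CG14715*, described above, FBgn0027341, *Sod3* and FBgn0038220. FBgn0027341 was at 26.01, 15.004, 18.5 and 24.6 CPM in the *sgf11* libraries, against 39.8, 42.3, 58.7 and 47.1 CPM in *nonstop* and 53.04, 49.9, 59.2 and 48.1 CPM in wild type. *Sod3*, a gene for an extracellular superoxide dismutase, was at 13.7 ± 2.34 CPM in *sgf11*, 22.95 ± 2.78 CPM in *nonstop* and 20.7 ± 1.91 CPM in wild type (SD, n = 4 each). The calls of *Sod3* and FBgn0038220 (-0.58 and -0.44 as log2 fold changes) were each lost when a single library was left out, *sgf11* replicate 3 or wild-type replicate 2 for *Sod3* and *sgf11* replicate 4 or wild-type replicate 2 or 3 for FBgn0038220 (FDR up to 0.0125), and both were lost with TMM factors from the genes that pass the authors' filter (FDR up to 0.0152). Near the edge of the rule, the *nonstop* interval of *CG14715* reached 0.52 on the log2 scale, inside the limit, and that of *p53* reached 0.59, outside it. *p53* was at 17.8 ± 2.404 CPM in *sgf11*, 9.81 ± 0.734 CPM in *nonstop* and 12.2 ± 1.11 CPM in wild type (SD, n = 4 each). The count of 16 fell to 10 without *nonstop* replicate 3 or 4 or without *sgf11* replicate 2, and the count of 4 fell to 2 without *nonstop* replicate 1 or 2, *sgf11* replicate 3 or wild-type replicate 2.

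**Figure D2:**
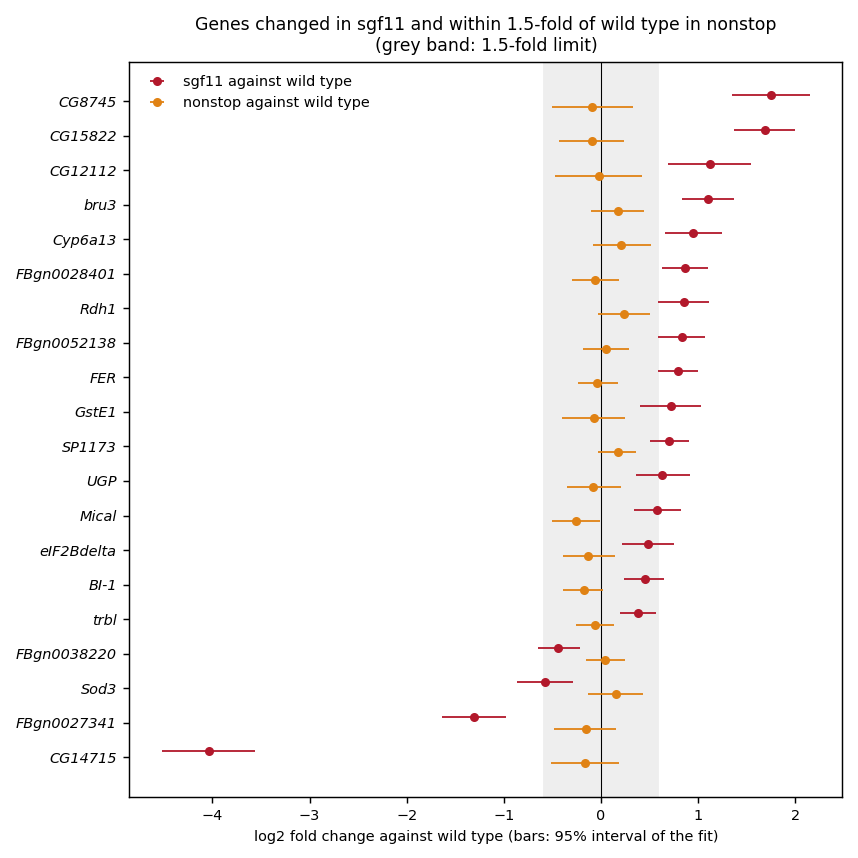
Log2 fold change from wild type in *sgf11* (upper point of each pair) and in *nonstop* (lower point), with 95% intervals of the fit, for the 20 genes called in *sgf11*, flat in *nonstop* and called between the mutants. The grey band marks the 1.5-fold limit, and *CG14715* at -4.04 and *CG8745* at 1.75 are the ends of the *sgf11* range.

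Set directly against *nonstop*, *sgf11* glia were higher in 128 genes (1.28% of those tested) and lower in 82 (0.823%), 210 in all (2.11%). Of the 210, 60 were called in both mutants in the same direction and so differed in size, 7 were called in both in opposite directions, 73 were called in *sgf11* alone (58 higher, 15 lower), 55 in *nonstop* alone and 15 in neither. The count of higher genes fell to 78 without *nonstop* replicate 4 and to 81 without *sgf11* replicate 3. With edgeR's exact test and with DESeq2, 153 and 155 genes were lower instead of 82.

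*Cad87A* and *Gyc89Da* were among the 10 genes with the lowest p-values for being higher in *sgf11* than in *nonstop*. *Cad87A* (FBgn0037963, arm 3R), a member of the cadherin family of adhesion proteins, was at 1103, 1301, 1247 and 894 CPM in the *sgf11* libraries, against 252, 267, 232 and 226 CPM in *nonstop* and 191, 193, 185 and 185 CPM in wild type. This is a log2 difference from *nonstop* of 2.22 (quasi-likelihood FDR = 1.37e-09), for a gene that was not called in *nonstop* against wild type (log2 fold change 0.37, quasi-likelihood FDR = 0.0124). *Gyc89Da* (FBgn0038435, arm 3R), an atypical soluble guanylyl cyclase gene, was at 43.1, 44.6, 47.6 and 26.8 CPM in the *sgf11* libraries, against 3.06, 2.22, 1.93 and 3.06 CPM in *nonstop* and 1.001, 1.097, 0.869 and 1.05 CPM in wild type, and it rose in both mutants by different amounts (log2 fold changes 5.32 in *sgf11* and 1.37 in *nonstop*). *Lasp*, which encodes an actin-binding protein, was at 23.02 ± 1.89 CPM in *sgf11*, 2.62 ± 1.46 CPM in *nonstop* and 25.1 ± 4.08 CPM in wild type (SD, n = 4 each), so that here the change lay in *nonstop*. The 10 with the lowest p-values also include the unnamed FBgn0264718, *CG10920*, *Cht5*, *CG31601*, *CG9312* and *Fum3*.

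In 7 genes the mutants moved in opposite directions from wild type, and 4 of these were higher in *sgf11*. *Cht5* (FBgn0038180, arm 3R), a chitinase gene used in moulting, was at 82.5, 91.8, 102 and 63.4 CPM in the *sgf11* libraries, against 9.41, 9.997, 5.502 and 12.5 CPM in *nonstop* and 29.6, 28.9, 35.1 and 21.98 CPM in wild type, with no overlap among the 3 groups (log2 fold change 1.55, quasi-likelihood FDR = 3.73e-06 for *sgf11* and log2 fold change -1.60, quasi-likelihood FDR = 6.68e-06 for *nonstop*). FBgn0264718 was at 51.1 ± 7.13 CPM in *sgf11*, 7.28 ± 1.45 CPM in *nonstop* and 11.996 ± 0.445 CPM in wild type (SD, n = 4 each). *CG4511* moved least (log2 fold change 0.35 in *sgf11* and -0.34 in *nonstop*), and its *sgf11* call was lost without *sgf11* replicate 1, 2 or 3 or wild-type replicate 2 or 4 (FDR up to 0.0168), with library sizes in place of TMM factors (FDR 0.0442) and with no filter on low counts (FDR 0.0276). The other 3 were lower in *sgf11* and higher in *nonstop*. *CG32437* had 1 count over the *sgf11* libraries, against 39.4, 29.7, 42.1 and 42.6 CPM in the *nonstop* libraries and 1.73, 1.43, 1.54 and 1.47 CPM in the wild-type libraries. *CG11594* was at 4.33, 9.09, 5.86 and 5.301 CPM in the *sgf11* libraries, against 40.8, 47.6, 25.996 and 27.7 CPM in *nonstop* and 17.1, 14.6, 13.6 and 13.04 CPM in wild type. *IntS12*, a subunit gene of the Integrator complex, which processes small nuclear RNAs, had log2 fold changes of -1.06 in *sgf11* and 0.72 in *nonstop*.

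The genes with the strongest evidence of being lower in *sgf11* than in *nonstop* were mostly ones that changed in *nonstop*. Besides *CG32437*, *CG11594*, *CG14715*, *Sgf11* itself and the unnamed FBgn0036794, *l(3)87Df*, *lncRNA:CR40469*, *CG32440* and the P450 gene *Cyp313b1* were higher in *nonstop* than in wild type. *CG32440*, for example, was at 0.175 ± 0.262 CPM in *sgf11*, 16.1 ± 4.298 CPM in *nonstop* and 0.463 ± 0.241 CPM in wild type (SD, n = 4 each). *CG7900* (FBgn0037548, arm 3R) instead fell in *sgf11*. It was at 0.738, 0.455, 0.147 and 1.94 CPM in the *sgf11* libraries, against 12.2, 11.4, 12.9 and 12.1 CPM in *nonstop* and 7.82, 8.89, 11.01 and 8.73 CPM in wild type (log2 fold change -3.42, SE 0.33, quasi-likelihood FDR = 4.19e-07 for *sgf11* against wild type).

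Genes that differed between the mutants made up a larger share of 3L and 3R than of 2L, 2R and X, and some of them sat next to each other. By arm, 76 of 1905 tested genes on 3L (3.99%) and 50 of 2320 on 3R (2.16%) were called between the mutants, against 1.35% on 2L, 1.24% on 2R and 0.637% on X. Against wild type, *sgf11* calls were spread evenly, with 27.9% to 31.9% of tested genes on these 5 arms. The excess between the mutants is not particular to the third chromosome. The fourth chromosome (83 genes tested) had 3.61% called between the mutants and the Y (9 genes tested) had 44.4%. Both mutations and all transgenes lie on the third chromosome, and the third chromosomes of the groups carry different insertions and alleles, whose part in these counts was not tested. Runs of at least 3 such genes with at most 1 other tested gene between neighbours were listed after the values had been seen. There were 4 runs, 2 on 3L and 2 on 3R, and 3 of them were higher in *sgf11*. They hold 5, 7, 3 and 5 of the 210 genes. Genes low in *nonstop* and wild type, such as *Grl62b* (0.190 and 0.102 CPM), could enter the test through the *sgf11* libraries in which they were high. The filter thus favours genes that differ, and genes that were not tested are not counted within a run. The part of the filter in these runs was not tested.

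On 3L, the first run spans 5 tested genes over 35.1 kb, all of them called. *CG42841*, *Grl62a*, *Grl62b*, *Grl62c* and *CG42355* were at 6.52, 5.45, 2.04, 5.63 and 5.498 CPM in *sgf11*, 0.631, 0.451, 0.190, 0.615 and 0.688 CPM in *nonstop* and 0.528, 0.170, 0.102, 0.0274 and 0.207 CPM in wild type. The *Grl62* genes belong to the gustatory receptor-like family. The second run spans 9 tested genes over 72.1 kb, of which 7 were called, namely *CR15821*, *CG15820*, *CG13810*, *CG8960*, *CG15878*, *Oseg2*, a gene for a protein of ciliary transport, and *ACXD*, an adenylyl cyclase gene. These 7 were at 2.28 to 6.47 CPM (means) in *sgf11*, 0.274 to 2.01 CPM in *nonstop* and 0.0490 to 0.860 CPM in wild type. The 2 genes inside the run that were not called between the mutants, *CG5707* and *CG9018*, were at 10.97 and 14.3 CPM in *sgf11* and 6.37 and 11.2 CPM in wild type, and differed between the mutants by 0.24 and 0.36 on the log2 scale. The runs lie 16678 and 16509 kb from *Sgf11*.

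On 3R, *CG9312*, *Cht5* and *CG9297* form a run of 3 genes over 13.6 kb. *CG9312* was at 19.8, 25.5, 21.98 and 21.3 CPM in the *sgf11* libraries, against 1.96, 1.11, 0.825 and 1.53 CPM in *nonstop* and 0.728, 2.74, 1.83 and 0.736 CPM in wild type. *CG9297* was at 22.2, 24.9, 33.7 and 20.04 CPM in the *sgf11* libraries, against 0.489, 0.417, 0.825 and 1.36 CPM in *nonstop* and 2.91, 0.329, 0.290 and 0.105 CPM in wild type. The genes on either side of *Cht5* thus rose in *sgf11* with flat point estimates in *nonstop* (log2 fold changes -0.10 and -0.21), while *Cht5* fell there. In the other run on 3R the genes called between the mutants were lower in *sgf11* than in *nonstop*. In 4 of the 5 *nonstop* lay further from wild type than *sgf11* did, namely *l(3)87Df* (2.93 CPM in *sgf11*, 61.2 CPM in *nonstop* and 1.48 CPM in wild type), *ry* (27.5, 85.1 and 36.2 CPM), *Hsc70-2* (0.523, 9.697 and 0.287 CPM) and *CG31157* (0.693, 7.15 and 0.244 CPM). The fifth, *CG11668*, was at 2.31, 3.03, 3.66 and 6.34 CPM in the *sgf11* libraries, against 10.6, 11.52, 8.53 and 11.1 CPM in *nonstop* and 7.37, 7.57, 5.79 and 6.84 CPM in wild type. It was called lower in *sgf11* (log2 fold change -0.86, quasi-likelihood FDR = 0.00889) and did not pass the test in *nonstop* (log2 fold change 0.60, quasi-likelihood FDR = 0.0321), and its *sgf11* call was lost without any 1 of the *sgf11* and wild-type libraries other than *sgf11* replicate 4 (FDR up to 0.0404) and with TMM factors from the genes that pass the authors' filter (FDR 0.0266). The *nonstop* chromosome carries the allele *ry506* and a P-element marked with *ry+*, and their part in this run was not tested. Reads were counted without regard to strand, so genes that overlap or run antisense to each other cannot be told apart in any of the runs.

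**Figure D3:**
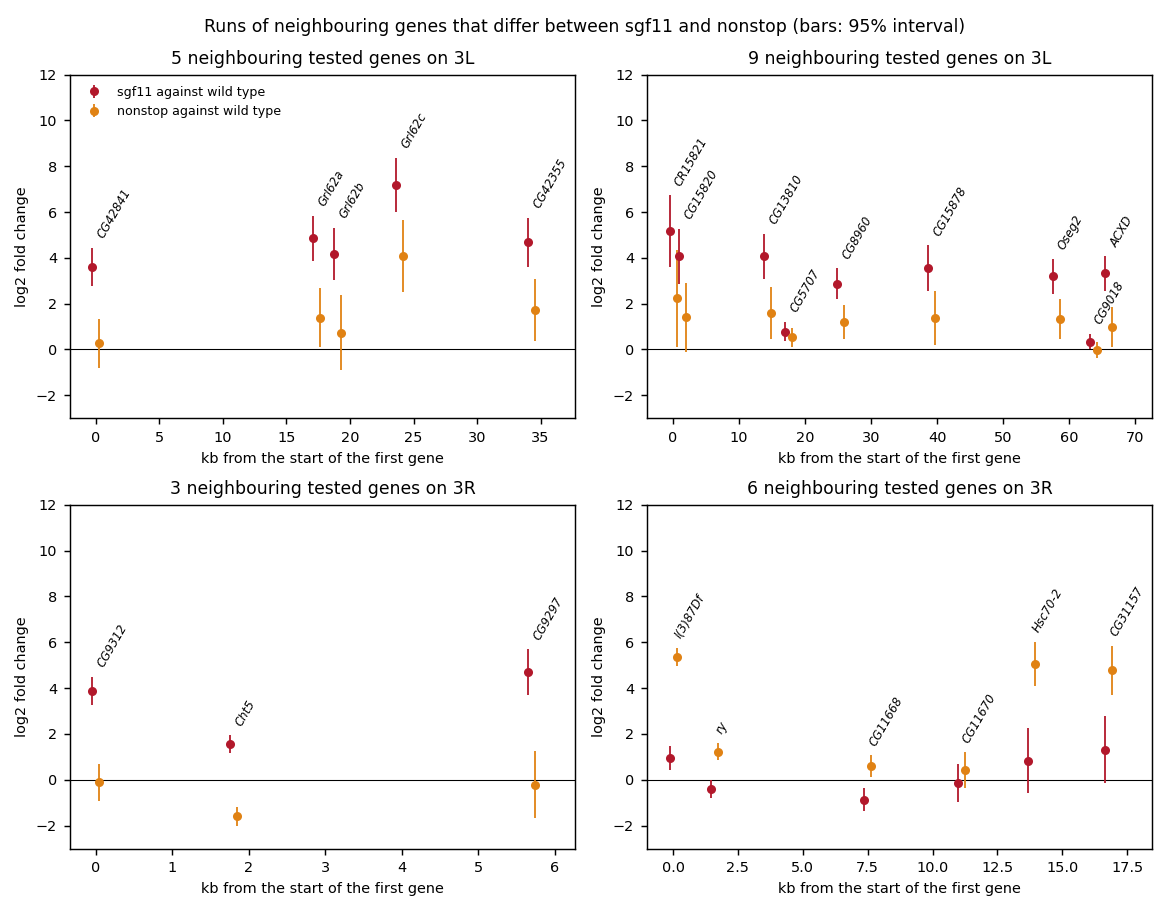
Log2 fold change from wild type in *sgf11* (red) and *nonstop* (orange), with 95% intervals, for the tested genes of each run, against the distance in kb from the start of the first gene. In 3 panels the *sgf11* values lie above those of *nonstop*, and in the panel with *ry* 5 of 6 *nonstop* values lie above 0.5.

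Genes of the Y chromosome and of the fourth chromosome were called higher in *sgf11* in larger shares than all genes. All 9 Y-linked genes tested are copies of the *Su(Ste)* repeat, and all 9 rose in *sgf11* (log2 fold changes 1.88 to 4.74), against 3 of 9 in *nonstop*, while 4 of 9 were called between the mutants. The copies are nearly identical, so the level of each copy is uncertain. Their mean levels in wild type were 0.234 to 1.64 CPM, near or below the filter of 1 CPM. A copy low in wild type could enter the test through the mutant libraries in which it was high. The filter thus favours copies that rose, and its part in the count of 9 was not tested. The dosage compensation RNA *lncRNA:roX1*, which is made in males, was at 2118 ± 201 CPM in *sgf11*, 1444 ± 254 CPM in *nonstop* and 1106 ± 219 CPM in wild type (SD, n = 4 each, log2 fold change 0.94, quasi-likelihood FDR = 0.000105 for *sgf11* against wild type), and it was the single member called among 8 genes of dosage compensation (2 rose with the TMM factors of the authors' filter). The sex of the pooled larvae is not given in the sources used here, and its part in these values was not tested. On the fourth chromosome, 34 of 83 tested genes rose and 2 fell in *sgf11*, which is 43.4% called against 30.5% of all genes tested.

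Counts for groups of genes with a shared function are given beside the share of all genes tested, 16.4% higher and 14.1% lower. The lists were drawn up with earlier results of these data known, and their counts are a description. With TMM factors computed on the authors' filtered genes (hereafter the other TMM factors) or with library sizes alone the counts shift, and the shifted counts are given where they change which direction holds more members or move the larger count by over 1.5 times. In the lists of protein turnover nearly every member fell. The proteasome degrades ubiquitinated proteins and consists of a catalytic core, the 20S particle, and a regulatory cap, the 19S particle. All 13 core subunits tested fell in *sgf11* (median log2 fold change -0.83), as did 17 of 18 cap subunits (median -0.88), and none rose. *Prosalpha3* was at 31.4, 29.1, 27.4 and 29.5 CPM in the *sgf11* libraries, against 93.6, 71.98, 56.6 and 71.1 CPM in the wild-type libraries (log2 fold change -1.32, SE 0.13, quasi-likelihood FDR = 4.22e-07). The cap subunit gene *Rpn3* was at 55.6, 66.5, 58.2 and 57.02 CPM in the *sgf11* libraries, against 155, 135, 146 and 139 CPM in the wild-type libraries, and *Prosalpha5* and *Rpt2* fell by similar amounts (log2 fold changes -0.99 and -1.04). In each of these genes the groups did not overlap. No proteasome gene was called between *sgf11* and *nonstop*, and the medians in *nonstop* against wild type were -1.13 for the core and -1.22 for the cap.

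Chaperone genes moved in both directions. In the TRiC chaperonin, which folds actin and tubulin, 5 of 7 subunits fell, such as *CCT5* (log2 fold change -0.90). Of 6 small heat shock protein genes tested, 3 fell and 1 (*CG14207*, log2 fold change 0.80) rose. *Hsp27* was at 209, 206, 172 and 114 CPM in the *sgf11* libraries, against 782, 749, 695 and 545 CPM in the wild-type libraries. Of 21 genes of the Hsp70, Hsp90 and Hsp60 families and their cochaperones, 5 rose and 4 fell (8 and 2 with the other TMM factors, 4 and 4 with library sizes), and those that fell include *Cdc37*, the cochaperone that brings kinases to Hsp90 (log2 fold change -0.69). The inducible *Hsp70Ba* was at 3.04, 1.67, 4.25 and 1.68 CPM in the *sgf11* libraries, against 0.367, 0.417, 0.688 and 0.425 CPM in *nonstop* and 0.637, 0.549, 0.869 and 0.631 CPM in wild type, and *sgf11* and *nonstop* differed (log2 fold change 2.48, quasi-likelihood FDR = 0.00173). The Hsp70 genes are near-identical copies, so the level of any 1 of them is uncertain. In the response to unfolded proteins and stress, 4 of 13 genes rose, including the transcription factor genes *Atf6* (log2 fold change 0.58) and *crc*, the fly ATF4 (log2 fold change 0.49), and 4 fell, including that for the chaperone calreticulin, *Calr* (log2 fold change -0.87). With the other TMM factors 4 rose and 2 fell, and with library sizes 3 and 4. Of 13 redox genes, *Gclc*, which starts glutathione synthesis, rose (log2 fold change 1.22), as did *Prx2*, and *Cat*, the catalase gene, fell (log2 fold change -0.52).

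**Figure D4:**
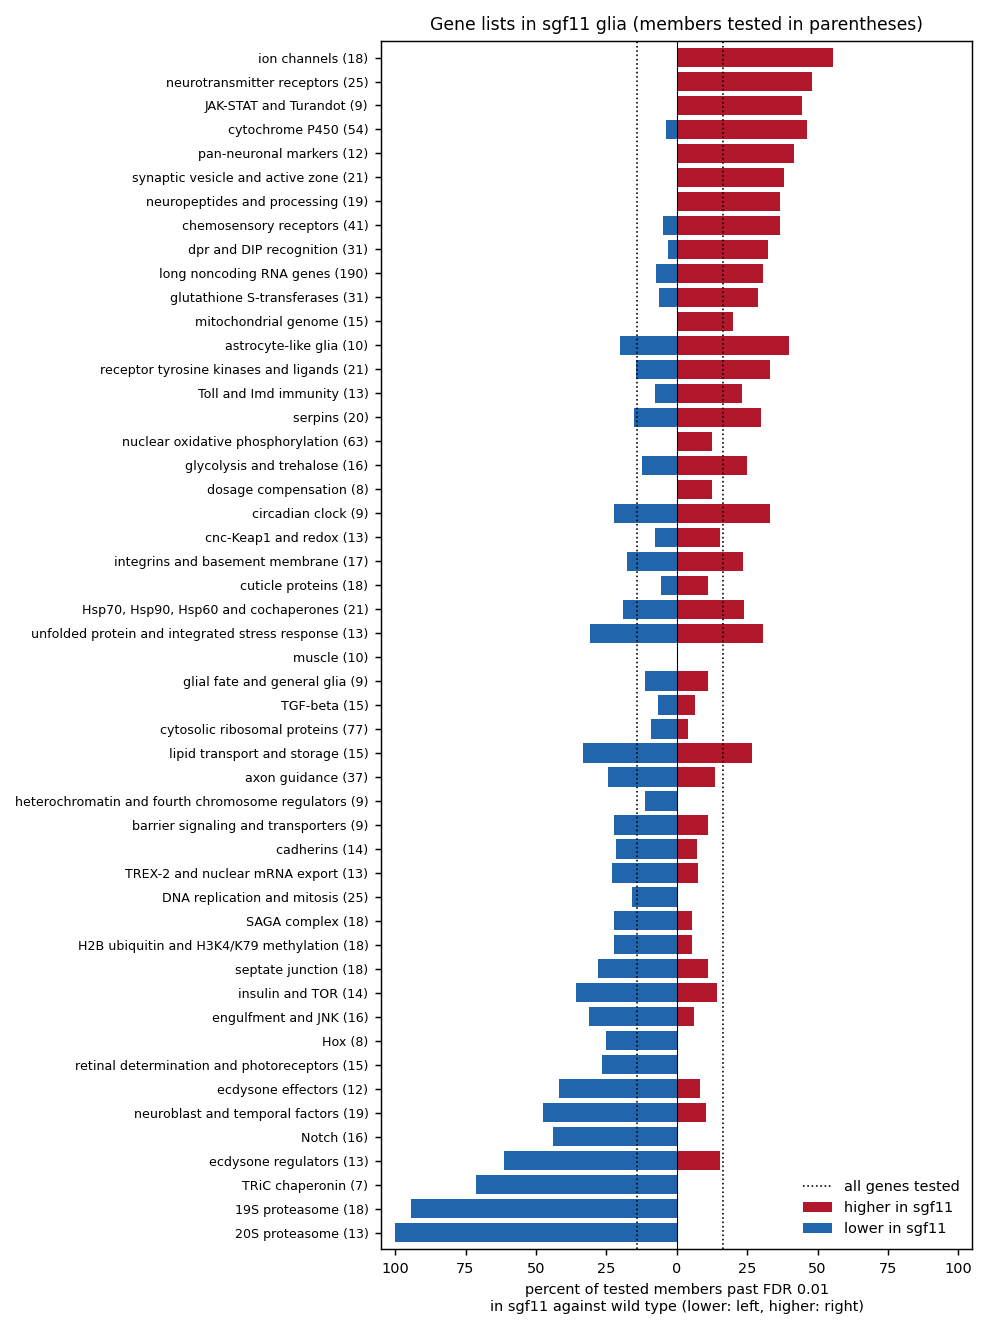
Share of tested members of each gene list past an FDR of 0.01 in *sgf11* against wild type, higher to the right and lower to the left, with the share of all genes tested (16.4% and 14.1%) as dotted lines. The proteasome lists are at 100% and 94.4% lower, and the ion channel list at 55.6% higher.

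In the lists of the ecdysone response more members fell than rose. Ecdysone pulses drive moulting and metamorphosis through a cascade of nuclear receptors, and wandering larvae are near such a pulse. Of 13 regulators tested, 8 fell and 2 rose (median log2 fold change -0.84). The nuclear receptor gene *Hr4* was at 17.7, 15.004, 18.3 and 17.1 CPM in the *sgf11* libraries, against 59.7, 77.6, 71.4 and 56.5 CPM in the wild-type libraries (log2 fold change -1.96, SE 0.13, quasi-likelihood FDR = 6.55e-09), and *Hr3* at 5.53, 3.79, 2.64 and 4.53 CPM in *sgf11*, against 21.8, 34.6, 34.5 and 22.3 CPM in wild type. *Eip78C* was at 8.53 ± 1.28 CPM in *sgf11*, 3.67 ± 1.43 CPM in *nonstop* and 39.8 ± 6.53 CPM in wild type (SD, n = 4 each), so that it fell less in *sgf11* than in *nonstop* (log2 fold change 1.19, quasi-likelihood FDR = 0.00401). Of 12 effectors, 5 fell, including *ImpE1* (115 ± 20.95 CPM in *sgf11* and 459 ± 84.8 CPM in wild type, SD, n = 4 each) and *ImpL2*, whose product binds insulin-like peptides (log2 fold change -0.99), and *Ldh*, the lactate dehydrogenase gene, rose (log2 fold change 1.31). *Ilp6*, the insulin-like peptide of the larval glia and fat body, was at 44.6, 57.3, 57.3 and 49.6 CPM in the *sgf11* libraries, against 127, 147, 124 and 119 CPM in the wild-type libraries, and *Thor*, the 4E-BP gene that insulin signaling keeps low, rose (log2 fold change 1.38). The stage of the larvae within the wandering phase is not given in the sources used here.

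Larval serum protein genes, which mark the fat body, made up the list, of the 54, in which the largest share of members differed between *sgf11* and *nonstop*. Of 6 members tested, 3 rose and 1 fell in *sgf11*, and the 3 that rose were also higher in *sgf11* than in *nonstop*. *Lsp1beta* was at 34.3, 23.8, 52.6 and 35.9 CPM in the *sgf11* libraries, against 12.8, 8.61, 13.1 and 19.5 CPM in *nonstop* and 21.1, 11.6, 11.49 and 17.6 CPM in wild type. *Lsp2* was at 36.98, 20.8, 40.6 and 25.1 CPM in the *sgf11* libraries, against 6.84, 9.16, 12.9 and 14.01 CPM in *nonstop* and 22.3, 13.6, 9.46 and 9.78 CPM in wild type, with an overlap between *sgf11* and wild type. *Lsp1alpha* had a log2 fold change of 1.37 in *sgf11* against wild type and 1.66 against *nonstop*. *Fbp1*, the receptor gene for larval serum proteins in the fat body, went the other way, at 12.5, 1.36, 3.37 and 2.84 CPM in the *sgf11* libraries, against 53.2, 18.9, 21.9 and 16.3 CPM in the wild-type libraries (log2 fold change -2.36, quasi-likelihood FDR = 0.00122). The calls of *Lsp2* and *Lsp1alpha* were lost without *sgf11* replicate 3, and that of *Lsp1alpha* also without wild-type replicate 2 or 3 (FDR up to 0.0191). With DESeq2 the call of *Fbp1* was lost. These 4 genes are among the 5 fat body markers summed above, which also summed to 31.3 to 47.7 CPM in *nonstop*, and the part that nuclei or free RNA of the fat body play in these values was not tested.

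Among glial genes the changes were mixed. Of 9 general glial genes, *Gs2*, the glutamine synthetase gene, was called higher and 1 was called lower, or 2 and none with the other TMM factors and 1 and 2 with library sizes. *Gs2* was at 240.0, 689, 526 and 578 CPM in the *sgf11* libraries, against 172, 176, 202 and 324 CPM in the wild-type libraries, with *sgf11* replicate 1 within the range of wild type, and its call was lost without *sgf11* replicate 2 or wild-type replicate 1 or 2 (FDR up to 0.0147). In astrocyte-like glia, which take up neurotransmitters, 4 of 10 genes rose and 2 fell. *alrm* was at 756, 1149, 993 and 1011 CPM in the *sgf11* libraries, against 264, 313, 355 and 533 CPM in the wild-type libraries (log2 fold change 1.42, SE 0.23, quasi-likelihood FDR = 9.15e-05), and the GABA transporter gene *Gat* rose too (log2 fold change 1.28). *pyr*, an FGF ligand gene, fell (log2 fold change -0.90). Of 18 septate junction genes, which seal the barrier glia, 5 fell, including *bark* (96.1, 93.7, 90.2 and 81.3 CPM in the *sgf11* libraries, against 184, 185, 196 and 152 CPM in wild type), and 2 rose, including the polarity gene *l(2)gl* (log2 fold change 0.76), while 4 rose and 2 fell with the other TMM factors. Of 16 genes of engulfment and JNK signaling, by which glia clear debris, 5 fell (3 with the other TMM factors), including *Rac1* (log2 fold change -0.80) and *bsk*, the JNK gene (log2 fold change -0.52), and 1 rose. Of 9 genes of barrier signaling and transport, 1 rose and 2 fell (2 and 2 with the other TMM factors). In the matrix around the glia, 4 of 17 genes rose and 3 fell (3 and 3 with library sizes). The laminin gene *LanA* was at 639.8, 821, 747 and 654 CPM in the *sgf11* libraries, against 227, 260.3, 288 and 286 CPM in the wild-type libraries, and *Mp*, the gene for the collagen Multiplexin, at 40.02, 37.7, 34.6 and 31.8 CPM in *sgf11*, against 54.9, 54.97, 72.4 and 67.5 CPM in wild type (log2 fold change -0.79, SE 0.13, quasi-likelihood FDR = 0.000151).

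In 5 lists of neuronal genes every member that passed the test was higher in *sgf11*, although in 4 of them most members did not pass. Of 18 ion channel genes, 10 rose, of 25 neurotransmitter receptor genes 12, of 21 genes of the synaptic vesicle and active zone 8, of 19 genes of neuropeptides and their processing 7, and of 12 general neuronal markers 5. With library sizes in place of TMM factors, 6, 7, 5, 6 and 3 members of these lists rose. The lists share members, so their counts are not separate. *brp*, *Syt1* and *nSyb* are counted in both the synaptic list and the general markers, and *cac* in both the ion channel and the synaptic lists. The potassium channel gene *slo* was at 23.2, 26.8, 26.7 and 28.3 CPM in the *sgf11* libraries, against 8.097, 6.36, 11.2 and 9.57 CPM in the wild-type libraries (log2 fold change 1.57, SE 0.16, quasi-likelihood FDR = 5.77e-07). Others were the calcium channel gene *cac* (log2 fold change 0.66), the glutamate receptor gene *mGluR* (log2 fold change 1.36), *Grd*, a gene for a subunit of the GABA receptor family (log2 fold change 1.99), *AstC* (log2 fold change 2.22), *Dh44* (log2 fold change 1.94) and the synaptotagmin gene *Syt1* (log2 fold change 0.63). Another was *unc-13*, a vesicle priming factor gene on the fourth chromosome, at 2696, 1952, 2803 and 2015 CPM in the *sgf11* libraries, against 311, 381, 431 and 342 CPM in the wild-type libraries. Of 31 genes of the Dpr and DIP cell surface families, by which neurons recognize partners, 10 rose, such as *DIP-alpha* (log2 fold change 1.26), and 1 fell, or 4 and 1 with library sizes. Within these lists, *Nplp1*, a neuropeptide precursor gene, was the single member called between the mutants. It was at 58.01, 75.6, 122 and 70.7 CPM in the *sgf11* libraries, against 14.7, 37.8, 45.7 and 34.99 CPM in *nonstop* and 31.7, 37.5, 44.5 and 41.2 CPM in wild type (log2 fold change 1.29, quasi-likelihood FDR = 0.00602 for *sgf11* against *nonstop*), and its call against wild type was lost without *sgf11* replicate 3 or wild-type replicate 1 (FDR up to 0.0138). The summed neuronal markers, given above, overlapped between *sgf11* and wild type, 3 of the 5 rose, and the part of RNA from neurons in these counts was not tested.

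In the lists of progenitor, eye and Notch genes more members fell than rose. Of 19 neuroblast and temporal identity genes, 9 fell and 2 rose, against 7 and 3 in *nonstop*. *mira*, the gene for the adaptor that carries cell fate determinants in dividing neuroblasts, was at 11.8, 8.49, 8.94 and 8.92 CPM in the *sgf11* libraries, against 27.4, 22.9, 15.3 and 20.2 CPM in the wild-type libraries, and the temporal genes *svp* and *slp1* fell (log2 fold changes -0.91 and -1.08), while *chinmo*, a gene of early-born neurons, rose (log2 fold change 1.01). The summed neuroblast markers, given above, were lower in every *sgf11* library than in every wild-type library, and the part of RNA from neuroblasts in these counts was not tested. Of 25 genes of replication and mitosis 4 fell, such as *CycB3* (log2 fold change -0.56), but with library sizes 2 fell and with the other TMM factors none fell and 1 rose. Of 15 retinal genes 4 fell, including *dac* (log2 fold change -0.80) and *sens* (log2 fold change -2.11), and none rose. Of 16 Notch pathway genes 7 fell (4 with the other TMM factors) and none rose, including the receptor gene *N* (223, 247, 233 and 206 CPM in the *sgf11* libraries, against 358, 337, 345 and 313 CPM in wild type) and *kuz*, the gene for the protease that cleaves the receptor (log2 fold change -0.71). Of 37 axon guidance genes, 5 rose and 9 fell, and those that fell include the Frizzled receptor gene *fz* (log2 fold change -0.49), and 7 rose and 6 fell with the other TMM factors. Of 14 cadherin genes, *Cad87A* rose and 3 fell (1 with the other TMM factors or library sizes), including *shg*, the E-cadherin gene (log2 fold change -0.89).

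**Figure D5:**
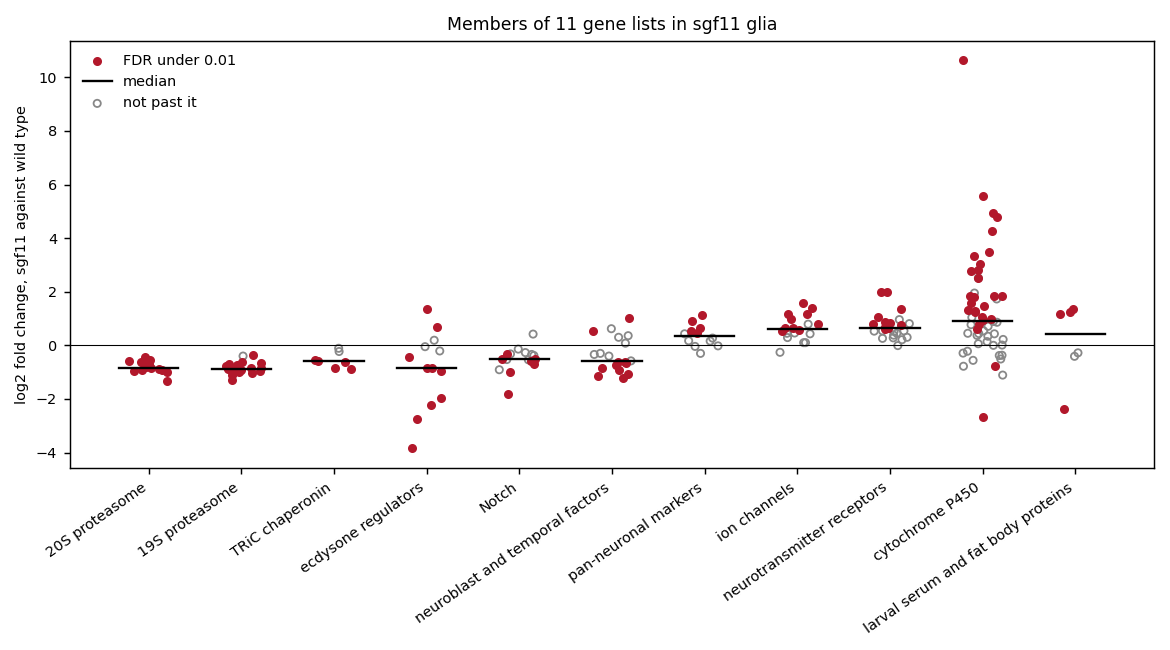
Log2 fold change in *sgf11* against wild type for every tested member of 11 gene lists (filled, FDR under 0.01; open, not past it; line, median of the list). All members of the 20S proteasome lie below 0, and the P450 genes spread furthest, up to *Cyp6a17*, which had no count in wild type and whose fitted value depends on the prior count.

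In the lists of detoxification more members rose than fell. Of 54 P450 genes tested, 25 rose, 2 fell and 27 did not pass (median log2 fold change 0.92). *Cyp4p1* was at 242, 204, 251 and 164 CPM in the *sgf11* libraries, against 17.7, 18.9, 18.5 and 21.98 CPM in the wild-type libraries, and *Cyp4p2* at 354, 298, 368 and 237 CPM in *sgf11*, against 45.2, 53.7, 57.8 and 62.05 CPM in wild type. Of the 54, 2 were higher and 3 were lower in *sgf11* than in *nonstop*. Of 31 glutathione S-transferase genes, 9 rose, such as *GstD5* (log2 fold change 4.57), and 2 fell, such as *GstO3* (log2 fold change -1.14). Members of these families that lie in tandem are close copies, and their levels are uncertain where reads matched several copies and were not counted. Of 20 serpin genes, 6 rose and 3 fell. *Spn77Bc* was at 9.59, 5.61, 11.3 and 5.69 CPM in the *sgf11* libraries, against 0.244, 0.972, 0.963 and 0.934 CPM in *nonstop* and 0.182, 0, 0.483 and 0.736 CPM in wild type, so that *sgf11* lay apart from both.

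Of 15 genes of lipid transport and storage, 4 rose and 5 fell (4 and 4 with the other TMM factors). *apolpp*, the gene for the main lipoprotein of the blood, was at 12575, 12768, 15989 and 11959 CPM in the *sgf11* libraries, against 19374, 26362, 16617 and 18588 CPM in *nonstop* and 2664, 2865, 3078 and 2715 CPM in wild type (log2 fold change 2.23, SE 0.17, quasi-likelihood FDR = 1.81e-08 for *sgf11* against wild type). *NLaz*, an apolipoprotein D-like lipocalin gene, was at 21.7, 10.6, 8.79 and 7.37 CPM in the *sgf11* libraries, against 2.93, 4.86, 3.99 and 4.16 CPM in *nonstop* and 143, 161, 112 and 128 CPM in wild type, and fell less in *sgf11* than in *nonstop* (log2 fold change 1.64, quasi-likelihood FDR = 0.00244). Of 16 genes of glycolysis and trehalose use, 4 rose, such as the aldolase gene *Ald1* (log2 fold change 1.20), and 2 fell. Of 63 nuclear genes of oxidative phosphorylation, 8 rose (12.7%, and 20 genes with the other TMM factors) and none fell, including *UQCR-11* (log2 fold change 1.88) and *ND-13B*, which is flat in *nonstop* (log2 fold changes 0.89 in *sgf11* and 0.10 in *nonstop*). Of 15 genes of the mitochondrial genome, 3 rose. *mt:ATPase6* was at 1528, 3325, 2537 and 2156 CPM in the *sgf11* libraries, against 719, 752, 567 and 750.4 CPM in the wild-type libraries. Of 77 cytosolic ribosomal protein genes, 3 rose and 7 fell in *sgf11*, such as *RpL24* (log2 fold change -0.62), while 2 rose and 27 fell in *nonstop*, and none was called between the mutants. With the other TMM factors, 6 rose and 2 fell in *sgf11*, and with library sizes 3 and 11.

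In the JAK-STAT, immune and receptor tyrosine kinase lists more members rose than fell. Of 9 genes of the JAK-STAT pathway and its Turandot targets, 4 rose and none fell. The cytokine gene *upd2* was at 3.41, 3.33, 5.57 and 3.49 CPM in the *sgf11* libraries, against 0.546, 1.76, 0.869 and 0.946 CPM in the wild-type libraries, and *Socs36E* and *TotM*, targets of the pathway, rose (log2 fold changes 0.99 and 3.24). Of 13 genes of the Toll and Imd pathways, 3 rose, including the NF-kappaB gene *Rel* (log2 fold change 0.55), and the receptor gene *Tl* fell (log2 fold change -0.64). Of 21 receptor tyrosine kinases and ligands, 7 rose and 3 fell (4 and 3 with library sizes). *Pvr*, the PDGF and VEGF receptor gene, was at 42.5, 53.3, 54.8 and 71.8 CPM in the *sgf11* libraries, against 13.5, 13.3, 15.4 and 17.98 CPM in the wild-type libraries, while *Egfr* fell (log2 fold change -0.89). Of 14 genes of insulin and TOR signaling, 2 rose (*Ilp8* and *Thor*) and 5 fell (3 with the other TMM factors), including *Ilp6*. Of 15 TGF-beta genes 1 rose and 1 fell, or 3 and none with the other TMM factors. In the gap junction family, 2 of 4 innexin genes fell and none rose.

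In the lists that remain, 15 of 41 tested chemosensory receptor genes rose and 2 fell. Of 190 tested long noncoding RNA genes, 58 rose and 14 fell. Of 9 circadian clock genes, 3 rose and 2 fell (2 and 2 with library sizes). Of 18 tested cuticle protein genes, 2 rose and 1 fell (1 and 2 with library sizes). The chemosensory, long noncoding RNA, cuticle and P450 lists hold 180, 650, 125 and 80 genes, and the others did not pass the filter. Genes near silent in wild type could pass it through mutant libraries in which they were high. This favours increases in such lists, and its part in the counts was not tested. Of 8 Hox genes 2 fell and none rose (1 and 1 with the other TMM factors), and of 9 regulators of heterochromatin and of the fourth chromosome 1 fell (none with either other scaling). None of 6 hemocyte genes and none of 10 muscle genes passed the test in either direction, in *sgf11* or in *nonstop*, but 1 muscle gene rose in *sgf11* with the other TMM factors.

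Genes of the machinery in which Sgf11 acts were called in a share close to that of all genes. Of 18 SAGA genes tested, 4 were called lower (the mutated gene and *not* among them) and 1, the adaptor gene *Ada2b*, was called higher, at 57.5, 53.3, 57.9 and 46.2 CPM in the *sgf11* libraries, against 33.8, 38.3, 27.2 and 32.3 CPM in the wild-type libraries. Of 18 genes of H2B ubiquitination and H3K4 and H3K79 methylation, 4 fell and 1 rose. They include *gpp*, the H3K79 methyltransferase gene (log2 fold change -0.58), and *trr*, an H3K4 methyltransferase gene, at 181, 98.7, 93.5 and 112 CPM in the *sgf11* libraries, against 403, 439, 252 and 293 CPM in the wild-type libraries, with no overlap in spite of a wide spread. Of 13 genes of TREX-2 and mRNA export, *sbr*, the gene for the export receptor, rose (log2 fold change 0.76) and 3 fell. These are 5.56% higher and 22.2% lower in each of the SAGA and histone lists, against 16.4% and 14.1% of all genes tested.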

How the data were processed

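Nuclear RNA was amplified to cDNA with the Ovation RNA-Seq System V2 and sequenced, and the 12 libraries were sequenced as a single pool per the study's methods. The deposited values are counts per gene, made by the authors, per the labels and their methods, with Trimmomatic 0.32, TopHat2 2.0.13 with Bowtie2 2.2.4 on the BDGP5 genome, and HTSeq 0.6.1 without regard to strand. Entries that name no gene (96.1% to 96.7% of each file's total) were left out. Most of these are alignments that were not unique (95.1% to 95.9% of the total), which add to no gene's count. The authors' tables of fold changes and p-values were deposited too and were not used. Of 15682 gene IDs, 15002 matched a symbol in the reference annotation, which was used for names, arms and distances only, since its build differs. Depth limits precision: before TMM scaling, as in the filter, 1 CPM is 6.91 to 11.46 counts.

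Genes with over 1 CPM of gene counts in at least 4 of 12 libraries (9966) were fitted in 1 model of the 3 groups with edgeR 4.0.16 (TMM factors, quasi-likelihood test, R 4.3.3), and FDR is its Benjamini-Hochberg adjusted p over these genes. SE is the absolute log2 fold change over the square root of the F statistic. Printed levels (CPM) are counts per 1000000 of the TMM-scaled library. Folds against a group at 0 take 3 counts for that group as a floor, and ratios to 1 to 3 counts have exact 95% intervals, both for counting error only. The study's methods describe the replicates as biological, with tissue dissected for each, and p-values measure the spread between them. On simulated counts for *sgf11* against wild type over 9966 genes, the test found 66% of 2-fold and 95% of 4-fold changes with 0 false calls. Far fewer genes were changed in the simulation than were called in the data, as many up as down, all over 1 CPM in wild type. Its counts had the spread of the fit and no shift in scaling, so these rates need not hold for the data.

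Named genes are *Sgf11*, *not* and the flanking genes, the 10 highest and 10 lowest called fold changes with separate groups and at least 5 CPM in the higher group, up to 4 called members of each list by lowest p, up to 15 genes in each direction among those flat in *nonstop* and called between the mutants, the 10 lowest p-values in each direction between the mutants, and cell type markers. Of these, 1 is not reported here. Other genes, among them those of the runs of neighbours, *CG4511*, *IntS12*, *p53* and *Nplp1*, were chosen after their values were seen. The members and the 54 gene lists were chosen with earlier results of these data known. Of the list symbols, 42 were not matched and are not analysed here. Alternatives were other scalings, filters, tools (edgeR's exact test, DESeq2 1.42.0), thresholds and flat limits, a replicate block, and leaving out each library.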

Additional observations from a re-analysis of the deposited data

Results flagged for a closer look

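In 22 of the 476 groups of 4 libraries examined over 160 genes (4.62%), 1 library lay apart from the other 3 by Dixon's criterion at 95%, which sets the gap to the nearest library against the range of the group, and chance alone flags about 1 group in 20. In *sgf11*, replicate 1 stood apart for *CG14257* (0.922 CPM, the other 3 at 0.259 to 0.303), *UGP* (52.6 CPM, the others 78.1 to 78.2), *Eip78C* (10.4 CPM, the others 7.76 to 8.18) and *mira* (11.8 CPM, the others 8.49 to 8.94), 4 of the 22 cases, and for each of them it lay nearer to wild type than the other 3 did. Replicate 4 stood apart for *CG10920* (16.3 CPM, the others 49.1 to 54.2), replicate 2 for *CG31157* (1.67 CPM, the others 0.277 to 0.440) and, with a single count, for *CG32437* (0.152 CPM, the others 0), and replicate 3 for *upd2* (5.57 CPM, the others 3.33 to 3.49).

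In *nonstop*, replicate 1 stood apart for *CG8745* (25.1 CPM, the others 11.97 to 13.6) and *Spn77Bc* (0.244 CPM, the others 0.934 to 0.972), replicate 3 for *Thor* (24.9 CPM, the others 19.6 to 20.3), and replicate 4 for *CG13810* (2.12 CPM, the others 0.417 to 0.688), *CG14207* (113 CPM, the others 88.4 to 89.7) and *Dh44* (63.6 CPM, the others 17.6 to 19.8). In wild type, replicate 1 stood apart for *CG9297* (2.91 CPM, the others 0.105 to 0.329), *Cdc37* (50.8 CPM, the others 41.8 to 43.1), *ImpL2* (179 CPM, the others 262 to 278) and *Fbp1* (53.2 CPM, the others 16.3 to 21.9). Wild-type replicate 2 stood apart for *Grd* (2.41 CPM, the others 1.35 to 1.47) and, with a single count each, for *CG10920* and *Grl62c* (0.110 CPM, the others 0), and wild-type replicate 3 for *bru3* (70.5 CPM, the others 46.1 to 49.7). No cause was tested.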

How the results depend on the processing

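Of the 150 named genes called in *sgf11* against wild type, none changed direction under any alternative run and 16 lost the call under at least 1. Among the counts, the study's genes alone (3633) gave 860 higher and 705 lower in *sgf11* against wild type, 927 and 813 in *nonstop* against wild type, and 59 and 41 in *sgf11* against *nonstop*, with fewer genes tested. TMM factors from those genes gave 935 lower in *sgf11* and 1086 lower in *nonstop*. At an FDR of 0.05, 213 genes were higher and 173 lower in *sgf11* than in *nonstop*, 170 higher and 185 lower were flat in *nonstop*, and 34 and 14 of these differed between the mutants. DESeq2 gave 155 lower in *sgf11* than in *nonstop*, and 26 higher and 12 lower flat in *nonstop* and different between the mutants. The exact test gave 153 lower in *sgf11* than in *nonstop*, and having no interval it gave no count of flat genes. Library sizes gave 18 lower and flat. A flat limit of 0.32 on the log2 scale left 6 higher and 7 lower (4 and 1 different between the mutants), and a limit of 2-fold gave 168 and 192 (27 and 13). For the scalings, the shift of all genes stands in the report. The cause was not tested for the others.

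With 1 library of the groups compared left out (of any group for the flat genes), *sgf11* against wild type gave 1365 to 1581 higher and 1127 to 1254 lower (2951 to 3091 in both directions without a *nonstop* library, since the 3 groups share 1 fit), *nonstop* against wild type 1576 to 1757 and 1342 to 1577, *sgf11* against *nonstop* 78 to 104 and 58 to 75, genes flat in *nonstop* 45 to 80 and 59 to 144, and those also different between the mutants 10 to 18 and 2 to 6. *Lasp*, which was not called, was at -0.12 in the fit reported, 0.0 with TMM factors from the study's genes and -0.17 to 0.01 with 1 library left out (0.01 without wild-type replicate 2). The replicate numbers did not pair the libraries (correlations of deviations between same-numbered libraries -0.076 to 0.122), and with the number as a replicate block 1621 genes were higher and 1404 lower in *sgf11* than in wild type and 112 and 71 in *sgf11* than in *nonstop*.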
